A study of Drosophila melanogaster with 3 samples.

Results

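The 10 genes described here include the proneural genes achaete (ac), scute (sc), lethal of scute (l(1)sc), asense (ase) and atonal (ato). The others are the neuroblast genes worniu (wor), deadpan (dpn) and prospero (pros), the neuronal marker elav and the Sox gene SoxN. The 10 are among 13945 protein-coding genes on the 6 chromosome arms 2L, 2R, 3L, 3R, 4 and X. They were chosen by name, and all 10 were found in the Ensembl annotation with the same start and end as in RefSeq. For each gene, every peak was taken whose summit, the peak's point of highest signal, lay in the gene body or within 5 kb of it. The data are chromatin immunoprecipitation followed by sequencing (ChIP-seq) from whole Drosophila melanogaster embryos of pooled sexes, aged 0 to 16 h. The embryos came from 1 transgenic line that stably expresses the CG5180 protein with eGFP, a green fluorescent protein, at its C terminus, and chromatin was precipitated with an antibody against GFP. CG5180 is a gene still known by its annotation number. The 3 biological replicates form 1 group. No embryos without the tag and no control library were analysed here, so whether the same regions are enriched in any GFP precipitation was not tested. The promoter that drives the tagged protein is not stated in the labels, and a whole-embryo peak cannot tell strong binding in a few cells from weak binding in many.

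In the fly neuroectoderm, the proneural genes encode basic helix-loop-helix (bHLH) proteins that pair with the partner Daughterless, bind E-box sequences and give groups of cells the competence to become neural precursors. Notch signalling then restricts that fate to single cells, which delaminate as neuroblasts and divide asymmetrically. Neuroblasts keep dividing with the help of genes such as dpn, wor and ase, while Prospero is passed to the daughter cell, where it represses self-renewal genes and promotes differentiation, and Elav marks the resulting neurons.

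Peaks of tagged CG5180 were strong at pros, elav and SoxN and weak or not listed at the other 7 genes. In the list that the authors filtered by IDR, the irreproducible discovery rate, which keeps peaks that rank alike in several lists, 3 of the 10 genes had a summit in their window (Wilson 95% interval 10.8 to 60.3%). Of all protein-coding genes 40.5% had one. The interval treats the 10 genes as independent, although they were chosen by name and several share a locus, so it is not a test against that share. The IDR list held 5400 peaks, and these were the strongest 5400 of the 30000 peaks in the list called on pooled replicates. Each replicate's own list also held 30000 peaks. Strength is the authors' signal value, a score without a fixed unit that is compared here only within a list, and rank 1 is the strongest peak of a list. Signal values in the IDR list started at 182 and had a median of 313. The number of reads behind the lists is unknown.

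Sequences upstream of transcription start sites (TSSs) are shown for the strongly marked genes pros, elav and SoxN and for 4 proneural genes with no IDR summit. The other genes with no IDR summit, ase, wor and dpn, are not shown, so the printed stretches do not represent all of them. They are from RefSeq, genome release 6 (dm6), read 5′ to 3′ on the gene's own strand up to the base before the TSS. Capitals mark GAGAG or its complement CTCTC, the sequence bound by the GAGA factor, and CAGGTAG or its complement CTACCTG, the sequence bound by Zelda, which opens chromatin in the early embryo. The elav sequence (chrX:523227-523526, minus strand) reaches past its strongest summit, 260 bp upstream of the TSS. The others are the 200 bp before a TSS on the plus strand: pros at its internal TSS (chr3R:11372588-11372787), SoxN (chr2L:8825445-8825644), ac (chrX:369831-370030), sc (chrX:395860-396059), l(1)sc (chrX:409521-409720) and ato (chr3R:8277852-8278051). None of the printed bases is in an annotated UTR.
pros: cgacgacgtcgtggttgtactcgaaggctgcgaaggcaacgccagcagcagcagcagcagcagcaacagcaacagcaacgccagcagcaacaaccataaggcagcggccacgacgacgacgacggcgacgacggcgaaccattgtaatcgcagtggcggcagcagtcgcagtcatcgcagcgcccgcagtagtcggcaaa
elav: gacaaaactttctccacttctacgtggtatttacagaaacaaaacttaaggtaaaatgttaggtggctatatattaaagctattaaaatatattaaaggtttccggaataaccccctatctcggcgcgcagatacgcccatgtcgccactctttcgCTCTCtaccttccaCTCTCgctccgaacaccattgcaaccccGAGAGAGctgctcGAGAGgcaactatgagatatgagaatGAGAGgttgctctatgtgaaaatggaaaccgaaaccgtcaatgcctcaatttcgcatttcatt
SoxN: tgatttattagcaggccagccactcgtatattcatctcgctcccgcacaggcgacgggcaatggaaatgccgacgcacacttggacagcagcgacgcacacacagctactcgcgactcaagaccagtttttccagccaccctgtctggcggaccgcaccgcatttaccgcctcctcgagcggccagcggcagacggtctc
ac: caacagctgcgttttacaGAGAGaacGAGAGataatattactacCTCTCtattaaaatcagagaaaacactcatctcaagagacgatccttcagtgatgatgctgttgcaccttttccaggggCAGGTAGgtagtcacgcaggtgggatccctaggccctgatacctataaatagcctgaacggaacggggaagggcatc
sc: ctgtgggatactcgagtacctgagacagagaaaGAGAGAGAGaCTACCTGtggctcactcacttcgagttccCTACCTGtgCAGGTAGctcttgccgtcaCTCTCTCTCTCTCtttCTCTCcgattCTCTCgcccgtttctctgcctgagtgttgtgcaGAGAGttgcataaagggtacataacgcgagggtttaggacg
l(1)sc: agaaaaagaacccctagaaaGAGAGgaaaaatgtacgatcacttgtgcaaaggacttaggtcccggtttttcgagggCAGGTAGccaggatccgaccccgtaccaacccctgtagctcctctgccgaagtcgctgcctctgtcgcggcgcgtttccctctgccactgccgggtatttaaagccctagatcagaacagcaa
ato: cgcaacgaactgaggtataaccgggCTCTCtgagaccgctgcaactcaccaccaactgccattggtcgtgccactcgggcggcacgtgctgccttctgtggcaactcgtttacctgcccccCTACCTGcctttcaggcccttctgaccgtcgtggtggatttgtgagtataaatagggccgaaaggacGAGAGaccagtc

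In the printed stretches GAGAG occurred 6 times at elav and 11 times at sc, counting overlapping matches on both strands, and not at all at pros or SoxN. CAGGTAG occurred 3 times at sc and once each at ac, l(1)sc and ato, and in none of the 3 stretches of genes with IDR summits. The 200 bp before the TSSs of ase and wor, which are not printed, held neither motif. All promoters were then scanned over a fixed window from 250 bp before to 50 bp after each TSS, a comparison that was added after the values were seen. CAGGTAG lay in the promoters of ac, sc, l(1)sc, ato and dpn, which are 5 of the 7 genes without an IDR summit, and in 0 of the 3 genes with one. Over all 19253 promoters, 1.69% held it, and 5 of the 14 promoters of the 10 genes did. GAGAG was found at a promoter of all 3 genes with an IDR summit and of 6 of the 7 without one, ase being the gene without it. Over all promoters 33.2% held GAGAG, and 12 of the 14 promoters here did. It therefore did not separate the marked from the unmarked genes among these 10. A general E-box, CANNTG, lay in a promoter of 2 of the 3 and 6 of the 7 genes. By promoter it lay in 8 of the 14, against 77.9% of all promoters. At pros it lay only at the start at 11332878, which had no IDR summit within 250 bp. The marked start of pros and both starts of elav had none. The E-box CAGCTG, often bound by proneural proteins, was found only at ac and wor among the 10. That is 2 of the 14 promoters, against 17.9% of all promoters. These matches describe letters in a window and not bound sites.

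The strongest peak of the set was at pros, the homeodomain transcription factor that is segregated to the ganglion mother cell (FBgn0004595, 3R, 11328480 to 11407627, plus strand, 79.1 kb). Its summit at 11372816, in a peak from 11372427 to 11373112, had a signal value of 2511 and rank 268, and 4.96% of the IDR list was as strong or stronger. It ranked 275 in replicate 1, 288 in replicate 2 and 260 in replicate 3, a mean of 274 ± 14.0 (SD, n = 3), with signal values of 1020, 866 and 670 in those lists. All 3 replicates thus placed it at nearly the same rank. The summit lay 28 bp downstream of an internal TSS at 11372788, in the 5′ UTR of the 3 transcripts RJ, RK and RL that start there. It was 44.3, 39.9 and 37.8 kb downstream of the 3 other TSSs, at 11328480, 11332878 and 11334980, which start the transcripts RI, RM and RH. None of those 3 TSSs had an IDR summit within 250 bp. Of the 4 alternative starts of pros, only the shared start of RJ, RK and RL was therefore marked in the IDR list.

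A pair of weaker IDR peaks lay elsewhere in pros. The summit at 11393010, in the 3′ UTR, had a signal value of 294 and rank 2956, and its ranks in replicates 1, 2 and 3 were 3367, 3181 and 3319, so the replicates lay close together. Within 100 bp of that summit, GAGAG matched 10 times in a row of overlapping repeats. The summit at 11341336, in an intron 6356 bp downstream of the RH start, had a signal value of 191 and rank 5114, close to the end of the list. Its replicate ranks were 4205, 6124 and 8426, and only replicate 1 placed it among its strongest 5400. The pooled list had 20 summits in the pros window of 89.1 kb, or 2.24 per 10 kb, the same as the density over the arms, 2.24. Many of these were nearest to a TSS of another gene, KP78a, KP78b or mRpL40. The IDR summit at 11393010 was among them, 14908 bp upstream of a TSS of mRpL40. Which gene these summits belong to was not tested. IDR summits came to 0.337 per 10 kb, beside 0.403 over the arms and a median of 0.383 for windows of genes longer than 10 kb. The pros window thus held about as many peaks as its length gives at the average density, and 1 of them was strong. Among its strongest 5400, replicate 3 also had a pair of pros summits outside the IDR list. The one at 11409977, with rank 2498, lay 70 bp upstream of a TSS of the neighbouring gene Irbp and was not in the pooled list. The other, at 11368913 with rank 5179, lies near a pooled summit of rank 6105.

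**Figure D1:**
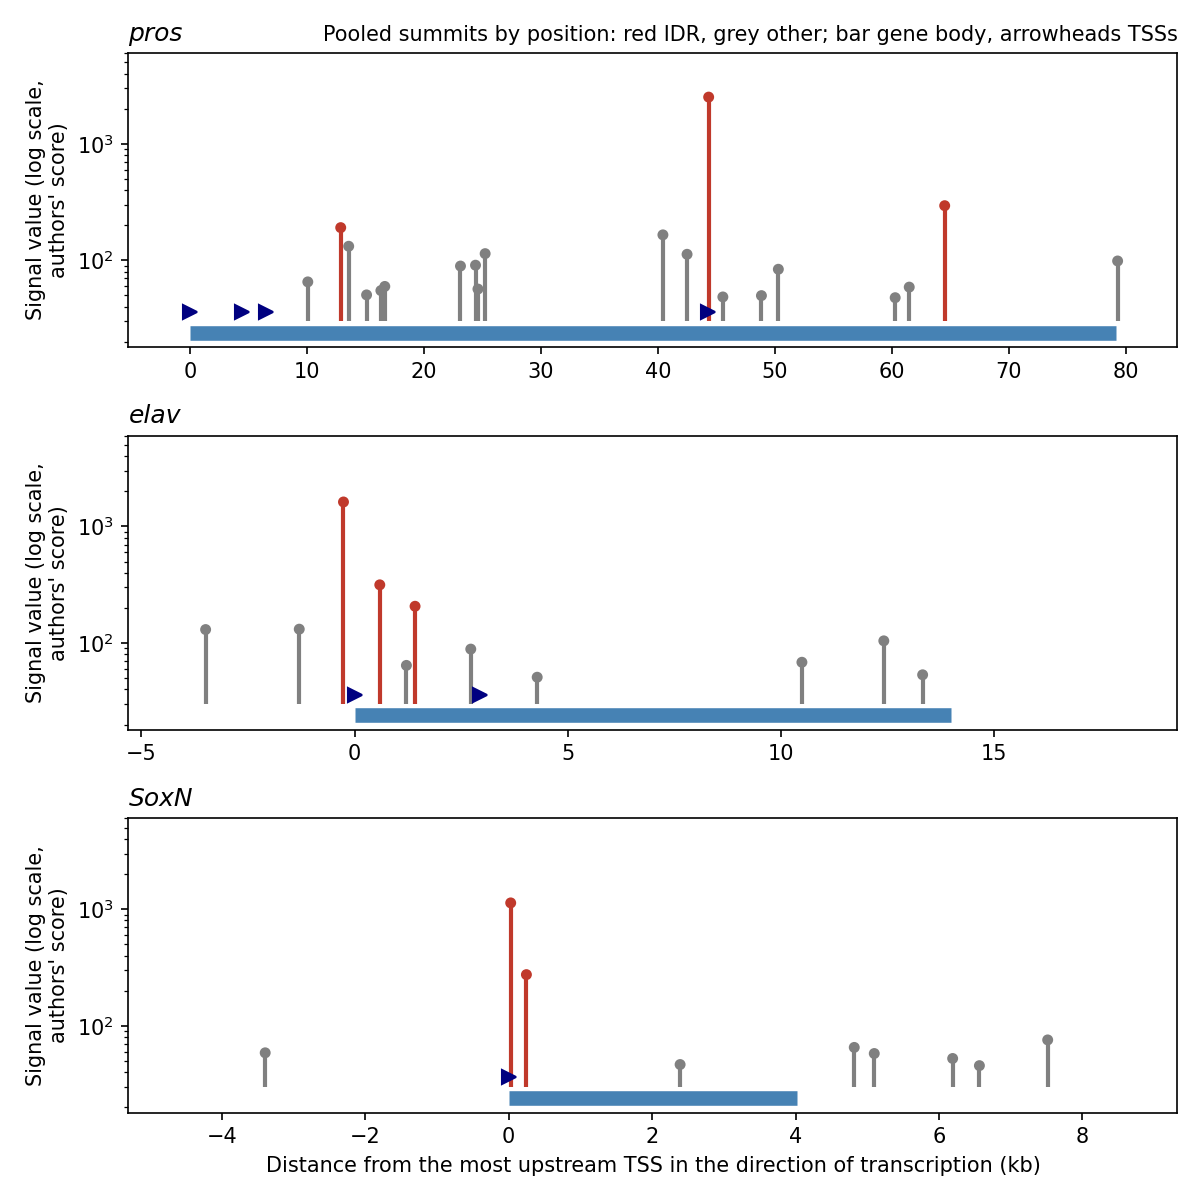
Signal value of each pooled peak (log scale, authors' score) against distance from the most upstream TSS in the direction of transcription (kb) at pros, elav and SoxN; red marks IDR summits, grey the other pooled summits, the bar the gene body and arrowheads the TSSs. The tallest red line stands 28 bp downstream of the internal TSS of pros, 260 bp upstream of the TSS of elav and 29 bp downstream of that of SoxN, with signal values of 2511, 1621 and 1132.

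At elav, which encodes a neuronal RNA-binding protein that directs alternative splicing and polyadenylation (FBgn0260400, X, 509235 to 523226, minus strand, 14.0 kb), 3 IDR summits lay around the 5′ end. The strongest, at 523486 in a peak from 523280 to 523686, had a signal value of 1621 and rank 370, and ranked 446, 356 and 366 in replicates 1, 2 and 3 (389 ± 49.3, SD, n = 3). The replicate signal values were 558, 647 and 424. This summit lay 260 bp upstream of the TSS at 523226, shared by the transcripts RA, RC and RD, just outside the 250 bp used here to call a summit at a TSS. The second, at 522635, lay 591 bp downstream of the same TSS in an intron, with a signal value of 316, rank 2676 and replicate ranks of 3494, 2402 and 2897. The third, at 521808, lay 1418 bp downstream, with a signal value of 207 and rank 4599. Its replicate ranks were 3531, 6771 and 6388, so that only replicate 1 had it among the strongest 5400. The other TSS of elav, at 520285 for transcript RB, had no IDR summit within 1000 bp. All 3 summits also lie in an intron of the overlapping gene arg, which encodes arginase, and which gene they belong to was not tested. With 1.25 IDR and 4.58 pooled summits per 10 kb, the elav window was more densely covered than the arms, at 0.403 and 2.24.

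SoxN, an early neuroectodermal transcription factor of the Sox B group that acts in neuroblast formation (FBgn0029123, 2L, 8825645 to 8829670, plus strand, 4.03 kb), had its IDR summits at its only TSS. The summit at 8825674, 29 bp downstream of the TSS in the 5′ UTR, had a signal value of 1132 and rank 532. Its ranks in replicates 1, 2 and 3 were 514, 571 and 600 (562 ± 43.8, SD, n = 3), and its signal values there 478, 407 and 266. The second summit, at 8825893 and 248 bp downstream, belonged to a peak of 129 bp that overlaps the first, had a signal value of 274 and rank 3193, and varied widely between replicates, with ranks of 3091, 1572 and 8354. The window held 9 pooled summits, and the 7 outside the IDR list were weak, with signal values from 45.5 to 75.6, against 45.5 for the weakest peak of that list. The 2 IDR peaks therefore form 1 marked region at the start of SoxN.

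The 3 genes kept their order in the pooled list and did not exchange places in any replicate. The lowest and highest replicate ranks of the strongest summit were 260 and 288 for pros, 356 and 446 for elav, and 514 and 600 for SoxN, so neighbours in the order did not overlap. Each of the 8 IDR summits was matched, within 200 bp, by a summit in every replicate list. The IDR list was derived from these same lists, so such a match is not independent support, and the share of all IDR summits so matched is not given here. Among each replicate's own strongest 5400 peaks, the windows of the 10 genes held 8, 7 and 7 summits (7.33 ± 0.577, SD, n = 3), in each replicate at pros, elav and SoxN alone. These were not all the same summits, so the SD is that of the counts and does not measure how well single summits repeat. Of the 8 IDR summits, 5 were among the strongest 5400 of all 3 replicates. The share of all IDR summits so placed is not given here. Within 250 bp of an own TSS, 2 of the 10 genes, pros and SoxN, had an IDR summit (Wilson 95% interval 5.67 to 51.0%), against 12.0% of all protein-coding genes. Within 500 bp, which takes in elav, it was 3 of 10 against 15.1%.

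**Figure D2:**
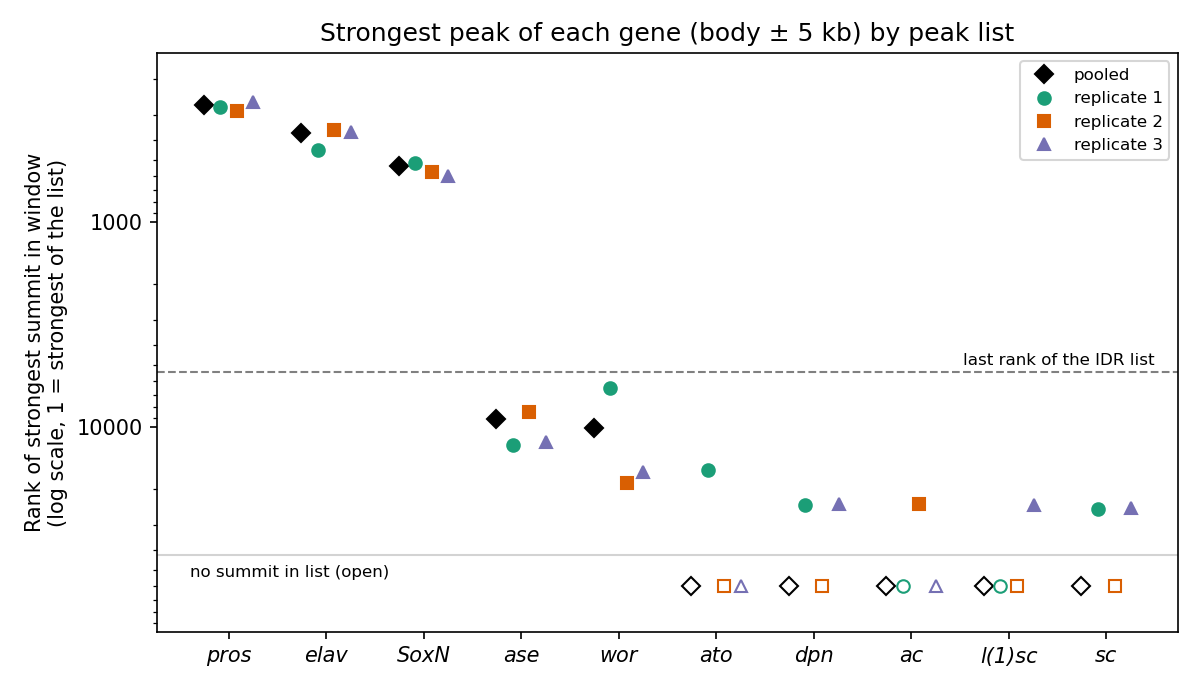
Rank of the strongest summit in each gene's window (log scale, 1 at the top is the strongest of a list) in the pooled list and the 3 replicate lists; open symbols mean that the list holds no summit there. The symbols of pros, elav and SoxN lie between 260 and 600, and all others lie below the dashed line at the last IDR rank, 5400.

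The 4 bHLH genes of the achaete-scute complex had no IDR summit. These are ac (FBgn0000022, X, 370031 to 370947), sc (FBgn0004170, X, 396060 to 397497), l(1)sc (FBgn0002561, X, 409721 to 410817) and ase (FBgn0000137, X, 460747 to 463176), all on the plus strand. The first 3 give neuroectodermal cells the competence for neural fate, and ase is expressed in the precursors themselves. From the start of ac to the end of ase, 93.1 kb, the IDR list had 0 summits, against 4.1 per 100 kb on the whole X. Cut into 252 tiles of the same length, 22.2% of the X had no IDR summit, so an empty stretch of this size is common there. The nearest IDR summits lay 24.8 kb before ac, at 345267 with rank 2217, and 30.8 kb after ase, at 493990 with rank 764. The empty stretch between them was 149.0 kb, and 25 of the 964 gaps between neighbouring summits on the X were at least as long, with a median gap of 6.15 kb.

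Weaker peaks were also sparse in the complex. The pooled list had 7 summits there, 7.52 per 100 kb against 23.0 on the X, and 17.9% of the tiles had as few or fewer. Replicates 1, 2 and 3 had 7, 3 and 10 summits in the complex. The windows of ac, sc and l(1)sc held no pooled summit. Single replicates listed weak summits there: ac had 1 in replicate 2, 272 bp upstream of its TSS with rank 23766. For sc there was 1 in replicate 1 and 1 in replicate 3, with ranks 25192 and 24861, and for l(1)sc 1 in replicate 3 with rank 23989. At ase the pooled list had 3 summits. The strongest, at 458081 and 2666 bp upstream of the TSS, had a signal value of 120 and rank 9123, and one 49 bp downstream of the TSS had rank 16350. The strongest summit in the ase window ranked 12196, 8411 and 11785 in replicates 1, 2 and 3. All 3 pooled summits at ase also lie in an intron of CG32816.

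**Figure D3:**
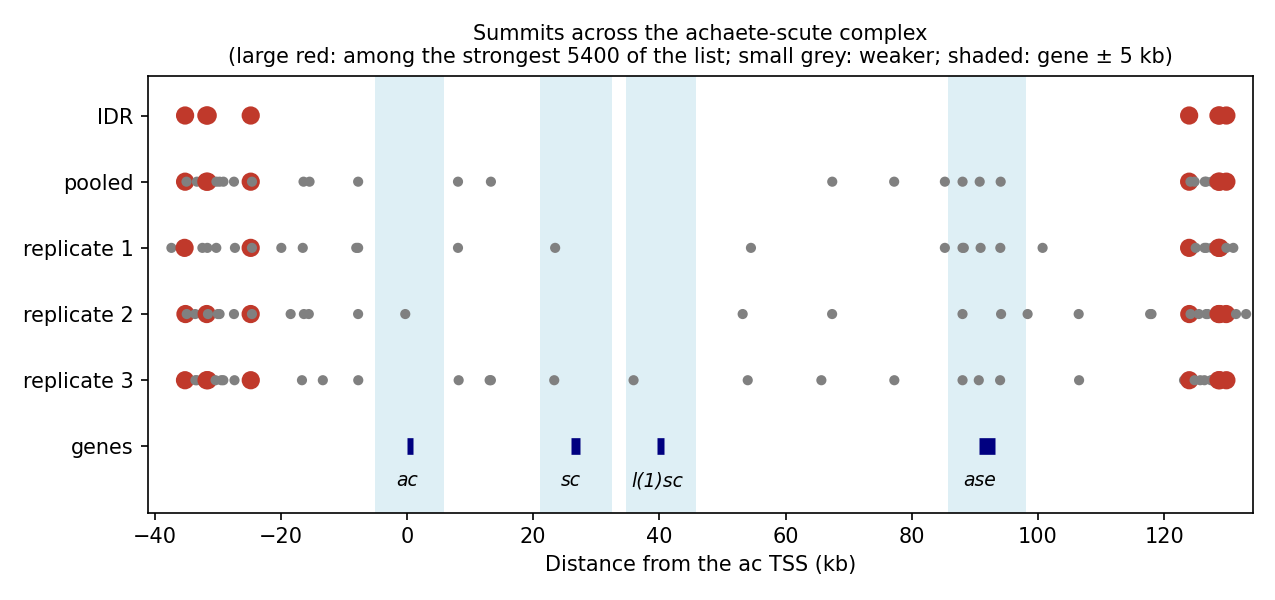
Summits of the IDR, pooled and replicate lists across the achaete-scute complex against distance from the ac TSS (kb); large red points are among the strongest 5400 of their list, small grey points are weaker, and shading marks each gene with 5 kb on either side. No red point lies between 24.8 kb before ac and 30.8 kb after ase in any of the 5 lists.

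atonal (ato), the bHLH proneural gene of chordotonal organs and photoreceptors (FBgn0010433, 3R, 8278052 to 8279274, plus strand), had neither an IDR nor a pooled summit. Replicate 1 listed a pair of summits at its promoter, 120 bp upstream and 110 bp downstream of the TSS, with ranks 16282 and 20378, and replicates 2 and 3 listed none. The nearest IDR summit was 37.9 kb away. A signal at the ato promoter was thus seen in 1 of 3 replicates and only among weak peaks.

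Among the neuroblast genes, wor, a zinc finger gene of the snail family (FBgn0001983, 2L, 15423297 to 15425580, minus strand), had 2 pooled summits and no IDR summit. The stronger, at 15422658, lay beyond the 3′ end, 2922 bp downstream of the TSS, and had a signal value of 110 and rank 10131. The strongest summit in the wor window ranked 6461, 18691 and 16655 in replicates 1, 2 and 3. The replicate ranks of wor and ase overlapped, so their order is not larger than the spread between replicates. For dpn, a bHLH-Orange repressor that keeps neuroblasts in self-renewal (FBgn0010109, 2R, 8228971 to 8232330, minus strand), neither the IDR nor the pooled list had a summit in the window. Replicate 1 had 2 weak summits there and replicate 3 had 1, none stronger than rank 23778. An IDR summit fell just beyond the window, 5026 bp upstream of the dpn TSS, with a signal value of 316 and rank 2669. It is 85 bp downstream of a TSS of pnut, which encodes a septin, and ranked 2756, 2572 and 3281 in the replicates. Extending the window to 10 kb, or counting overlap of the peak interval, therefore makes 4 of 10 genes. The share of 40.5% does not apply to that count, and the share of all genes under either rule is not given here.

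With pooled peaks, 5 of the 10 genes had a summit in the window (pros, elav, SoxN, ase and wor, Wilson 95% interval 23.7 to 76.3%), against 70.9% of all protein-coding genes. The windows held 45 pooled summits, of which pros had 20, elav 11, SoxN 9, ase 3 and wor 2. In the replicate lists 8, 6 and 8 of the 10 genes had any summit. The share of all protein-coding genes in those lists is not given here, so these counts stand without a background. The median distance from a TSS to the nearest IDR summit was 20.7 kb for the 10 genes and 9.71 kb for all protein-coding genes, from 0.028 kb at pros to 64.5 kb at l(1)sc.

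The marked genes were also the longest of the set. None of the 6 genes with a body under 3 kb (ac, sc, l(1)sc, ase, ato and wor) had an IDR summit, against 32.8% of all genes of that length. Of the 2 genes of 3 to 10 kb SoxN had one and dpn did not, and the background was 44.9%. Both genes over 10 kb, pros and elav, had one, against 66.5%. Over all genes the share with a summit thus rose with length class, and the part of length in the pattern of these 10 genes was not tested. The median gene had 0 IDR summits in its window, and 9.93% of genes had at least 3, as pros and elav did.

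**Figure D4:**
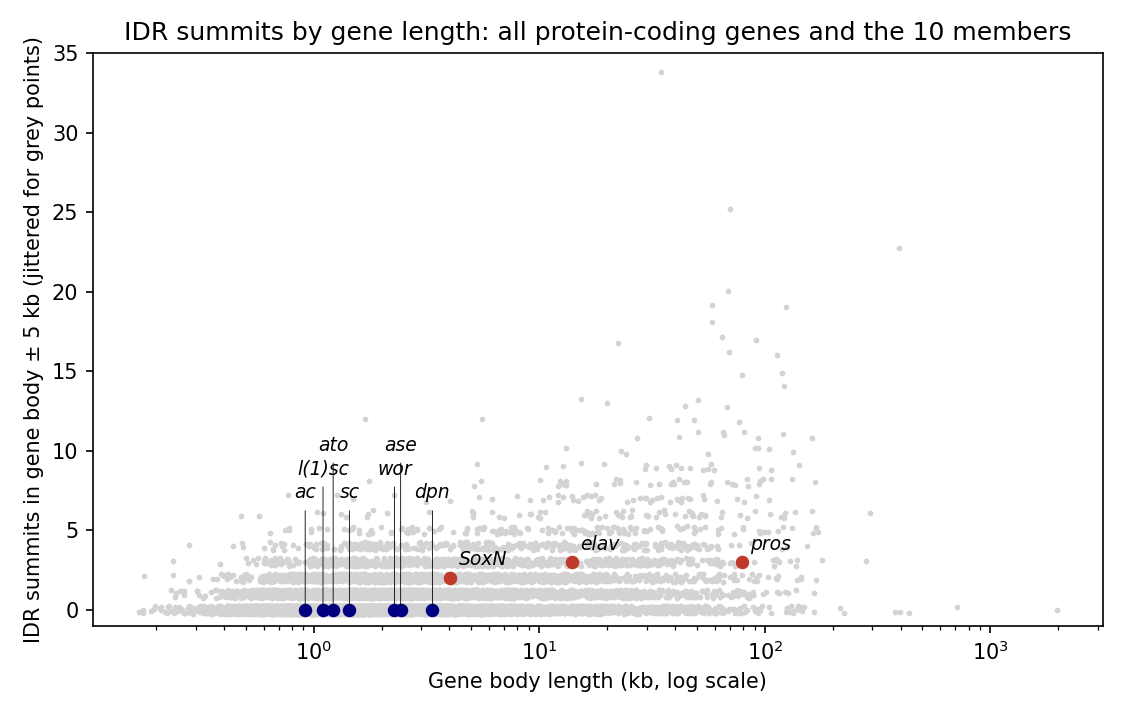
IDR summits in the gene body with 5 kb on either side against gene body length (kb, log scale), with 1 grey point for each of the 13945 protein-coding genes, jittered vertically. The 10 genes are labelled; the 7 blue ones sit at 0 summits and are all shorter than the 3 red ones, SoxN with 2 and elav and pros with 3.

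Sequence at the 8 IDR summits was searched on both strands within 100 bp for 11 motifs. CANNTG was present at 2 of the 8 summits, both at pros, against 63.2% of all 5400 IDR summits. Of its specific forms, CAGCTG was at 0 of 8 summits against 9.33% of all, CAGGTG at 0 against 5.31% and CACGTG at 0 against 2.35%. GAGAG was at 4 of 8, against 29.1%, namely a pair of summits at pros, the intronic summit of elav at 522635 with 3 matches, and the main summit of SoxN with 2. The strongest summits of pros and elav had none of the 11 motifs within 100 bp. CACGCG, bound by Hairy-related repressors, was at the main SoxN summit only, 1 of 8 against 5.65%, and the N-box CACNAG was at 0 against 21.3%. TTATCG was at 2 of 8, against 9.2%. CAGGTAG, the Sox sequence ACAAAG and the DREF palindrome TATCGATA were at 0 of 8, against 1.06%, 14.1% and 1.07%. With 8 summits in 3 genes, some of them less than 1 kb apart, these counts are descriptions only.

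The same pathway was followed through 46 further genes listed for their known roles. Of these, 27 had an IDR summit in their window, against 40.5% of all protein-coding genes, and 11 had one within 250 bp of a TSS, against 12.0%. With the gene body alone, 13 of the 46 had a summit. The share of 40.5% does not apply to that count, and the share of all genes for the gene body alone is not given here. In the windows 68 summits were counted. By length, 1 of 9 genes under 3 kb, 10 of 17 genes of 3 to 10 kb and 16 of 20 genes over 10 kb had one. The background shares by length are 32.8%, 44.9% and 66.5%. The counts by role that follow hold genes of mixed length. The share over all genes, 40.5%, is set beside each but is not matched for length. Of the 46 genes 20 are over 10 kb, against 1977 of all 13945, so 40.5% is low for roles with many long genes. Of the short proneural relatives tap had a summit of rank 4531, 2406 bp downstream of a TSS, and amos and cato had none.

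Of the 8 bHLH partners and antagonists 4 had an IDR summit in their window (background 40.5%), and da, the partner of the proneural proteins, did not. At emc, an inhibitor that sequesters proneural proteins, a summit 34 bp downstream of a TSS had a signal value of 547 and rank 1334, and ranked 1257, 1663 and 1321 in the replicates; it also lies in an intron of hng3. At hairy (annotated as hry), a repressor of ac, a summit 74 bp upstream had a signal value of 403 and rank 1953. At sens, a zinc finger gene that acts with the proneural genes in sensory precursors, a summit 187 bp upstream had a signal value of 194 and rank 5002, near the end of the list.

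In the snail and Sox families 6 of 10 genes had an IDR summit in their window (background 40.5%, and 66.5% for genes over 10 kb, which 5 of the 10 are). The strongest was at Sox14, 231 bp upstream of a TSS, with a signal value of 1596, rank 374 and replicate ranks of 401, 391 and 387. That is between elav and SoxN in strength. Sox102F had a summit 112 bp downstream of a TSS with a signal value of 832 and rank 776. The only IDR summit in the Sox15 window lay in the 5′ UTR of another gene, RpS23. Of the snail family genes, to which wor belongs, scrt had a summit 342 bp upstream of a TSS with a signal value of 243 and rank 3698, and sna and esg had none.

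Of the 7 neuroblast temporal factors, which change in turn as a neuroblast ages, hb, Kr, nub, pdm2 and cas had no IDR summit. The other genes, grh and svp, did, 2 of 7 against 40.5%. The share is 66.5% for genes over 10 kb, as grh, svp, nub and pdm2 are. At grh, a late factor in the series that also acts in the epidermis, there were 11 IDR summits. The strongest, 960 bp upstream of a TSS in an intron, had a signal value of 21484 and rank 27, with replicate ranks of 22, 33 and 27, and the one at a TSS had a signal value of 6157 and rank 148. Both were stronger than any peak at the 10 genes. At svp a summit 119 bp upstream of a TSS had a signal value of 436 and rank 1763. Of the 3 columnar genes, which divide the neuroectoderm into columns, vnd and Dr had 1 summit each (2 of 3 genes, background 40.5%) and none at a TSS, the stronger at vnd with a signal value of 322 and rank 2598.

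Among 10 genes of asymmetric division 7 had an IDR summit in their window. The background was 40.5% over all lengths and 66.5% for genes over 10 kb, as insc, brat, numb, baz and aPKC are. The strongest was in the window of par-6, with a signal value of 3511 and rank 214, but it lay in the 3′ UTR of CG8188 and nearest to a TSS of chas. At numb, the Notch inhibitor inherited by 1 daughter cell, a summit 144 bp upstream of a TSS had a signal value of 952 and rank 657. At brat, which with Prospero ends self-renewal, 6 summits were found, the strongest with a signal value of 1068 and rank 573 and the one at a TSS with rank 2707. At insc, which links the polarity complex to the spindle, a summit 25 bp upstream of a TSS had a signal value of 296 and rank 2930, and the nearest TSS was that of sktl. The only IDR summits in the windows of aPKC and pins were also nearest to TSSs of other genes, ckn and wdb. The gene mira, whose product carries Prospero to the daughter cell, had none. Of the 8 genes related to elav or acting in neuronal and glial differentiation 6 had a summit. The background was 40.5% over all lengths and 66.5% for genes over 10 kb, as fne, Rbp9, fru, ttk and lola are. Of the elav paralogues, Rbp9 had 3 summits, the strongest with a signal value of 559 and rank 1290 and nearest to a TSS of Rrp1, and fne had none. The strongest of this group was at fru, 1570 bp upstream of a TSS, with a signal value of 2467 and rank 272, next to that of pros. At repo, the glial homeodomain gene, 3 summits were found, the strongest with a signal value of 836 and rank 773 and the one at a TSS with rank 4735.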

How the data were processed

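ChIP-seq peak lists from 3 biological replicates of 1 group were used. According to README notes deposited by the authors, a replicate's list was derived from its alignments and 1 further file, taken here to be the control, the pooled list from all 3 alignments, and the IDR list from these lists. Chromatin was sonicated to 200 to 800 bp, per the labels. The aligner, peak caller, IDR threshold and scaling were not given in the sources used here. Each signal value is a score that the authors deposited for each peak, used only within a list. The summit is the deposited offset from the peak start. No read counts were used, so depth is unknown, and Wilson intervals cover counting error only.

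Of the deposited lists, the 5 on dm6 were used, with 1-based coordinates, Ensembl release 115 gene models and the RefSeq sequence of genome release 6. All peaks lay within the arms. Summits were counted in each gene body with 5 kb on either side, within 250 bp of TSSs, and matched between lists to the nearest summit within 200 bp. The nearest rather than the strongest summit was taken after the values were seen. No 2 replicate lists shared a row. With 1 group no test compares samples, and none was made between genes. The counting was tested on simulated data. The members, related genes, motifs and alternatives were chosen with earlier results of these data known. All 10 members are named. Of the related genes those with an IDR summit at a TSS and the strongest of each role are named by rule. The others (scrt, Rbp9, tap, Dr, Sox15, aPKC, pins and those with no summit) were named after their values were seen. Alternatives were other flanks, distances, thresholds and overlap rules, and leaving out each replicate. Python 3.11.15, pandas 2.3.3, numpy 2.4.6, scipy 1.17.1 and matplotlib 3.10.9 were used.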

Additional observations from a re-analysis of the deposited data

How the results depend on the processing

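Of 91 alternative values, 75 stayed within 1.5 times the count or within the replicate spread and 16 did not; none turned a direction, since no result has one. With all pooled peaks in place of IDR peaks, genes with a summit rose from 3 to 5, summits from 8 to 45 and genes with a summit at a TSS from 2 to 4. The share of all genes with a pooled summit at a TSS is not given here. The share of 12.0% is for IDR summits and does not apply to it. The stronger 2700 IDR peaks left 4 of 8 summits, in 3 genes. Leaving out each replicate, which kept IDR summits found among the strongest 5400 of both others, gave 5 to 6 summits in place of 8, each time at pros, elav and SoxN. The same criterion with all 3 replicates gave 5, so the fall comes with the criterion and not with a replicate left out. With the gene body only, related genes with a summit fell from 27 to 13, the rank of elav's strongest summit moved from 370 to 2676 and that of ase from 9123 to 16350, where a flank of 2 kb gave 16350 too. Leaving out each replicate gave median ranks of 542.5 to 585.5 for SoxN (532 in the pooled list), 10098 to 11990.5 for ase (9123) and 11558 to 17673 for wor (10131). Medians over all 3 replicates were 571, 11785 and 16655, so part of each move is the change from the pooled list to replicate lists. Within 50 bp of the summit, CANNTG was at 1 and GAGAG at 2 of 8 summits, and within 150 bp ACAAAG was at 1. No paired analysis was possible because there is 1 group. Unknown depth and 30000 listed peaks per replicate limit what an empty window means.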
